A study of Mus musculus with 4 samples.

Results

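The 10 genes described here mark the arterial side of the vascular tree: Gja4, Gja5, Sema3g, Sox17, Efnb2, Bmx, Stmn2, Ly6a, Podxl and Clu. They are 10 of the 32285 mouse genes counted, taken by name, and were followed in endothelial cells of 4 single-cell libraries. A cell was taken as endothelial when it held at least 1 UMI (1 counted RNA molecule) of Cdh5 or Pecam1 and fewer than 20 UMIs of Col1a2 and Cxcl12 together per 10000. It was then called Stab2-negative or Stab2-positive by whether any UMI of Stab2, a scavenger receptor of sinusoidal endothelium, was detected. All 10 genes were found in all 4 libraries.

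All mice were C57BL/6 and Rag2-/-gammac-/-, a genotype that lacks T, B and NK lymphocytes, and all cells came from femur bone marrow. Ctrl was the marrow of ungrafted mice, Sham_D40 that of mice grafted with PBS in place of lymphoma cells, at day 40. Graft_D19 and Graft_D40 came from mice grafted with DOHH2, a human follicular lymphoma B-cell line, at days 19 and 40. Each group was 1 library. Animal numbers and ages were not given in the sources used here, so no difference between libraries could be tested, and every interval on a level, share or ratio between libraries covers counting error only. The labels describe a sort of Cd31-positive, Sca1-positive endothelial cells and of Cd31-negative stroma. Sca1 is the protein of Ly6a and Cd31 that of Pecam1, so the gate had already selected on the product of 1 of the 10 genes.

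Arteries carry blood from the heart under pressure, and their endothelium is set apart from that of veins and marrow sinusoids by signalling through Notch receptors and by SoxF transcription factors, among them Sox17. Arterial endothelial cells are joined by gap junctions of connexin 37 and connexin 40, the products of Gja4 and Gja5, and carry ephrin-B2, the product of Efnb2, which binds EphB4 on veins. In bone marrow, small arteries and arterioles feed a wide bed of fenestrated sinusoids, which express Stab2.

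In the mouse build mm10 with GENCODE vM21, all 10 genes are protein coding. Gja4 spans 127311421 to 127314039 on chromosome 4, Gja5 96904693 to 97077416 on chromosome 3 and Sema3g 31217860 to 31230352 on chromosome 14. Sox17 spans 4490931 to 4497354 on chromosome 1, Efnb2 8617434 to 8661242 on chromosome 8 and Bmx 164192842 to 164258193 on chromosome X. Stmn2 spans 8509360 to 8561606 on chromosome 3, Ly6a 74994877 to 74998031 on chromosome 15, Podxl 31519488 to 31563981 on chromosome 6 and Clu 65968483 to 65981547 on chromosome 14.

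The 250 bases before the transcription start are printed for Gja4, Gja5 and Bmx, chosen because these genes had few UMIs in Stab2-positive cells of the libraries without lymphoma. They are RefSeq sequences on GRCm38.p6, the assembly that mm10 names, and 5 of the 10 genes were matched in that table. Each is written 5′ to 3′ on the strand of its gene, ending at the base before the start: Gja4 at chr4:127314040-127314289 (minus strand), Gja5 at chr3:97032152-97032401 (plus strand, inside the span of the gene in GENCODE) and Bmx at chrX:164258194-164258443 (minus strand). Capitals mark matches on either strand to TGGGAA (the core bound by RBPJ, the Notch effector), ACAAT (a core of Sox sites) or AGGAAG (a core of ETS sites).
Gja4: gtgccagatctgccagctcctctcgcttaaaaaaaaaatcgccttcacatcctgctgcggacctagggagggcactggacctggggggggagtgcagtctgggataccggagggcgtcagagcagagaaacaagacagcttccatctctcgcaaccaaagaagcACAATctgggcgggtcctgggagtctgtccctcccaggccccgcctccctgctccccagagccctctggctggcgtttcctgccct
Gja5: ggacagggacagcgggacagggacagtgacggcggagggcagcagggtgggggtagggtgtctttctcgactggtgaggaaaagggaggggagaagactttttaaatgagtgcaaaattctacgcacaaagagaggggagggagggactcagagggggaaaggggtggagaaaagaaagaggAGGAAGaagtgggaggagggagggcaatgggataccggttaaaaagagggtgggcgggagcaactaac
Bmx: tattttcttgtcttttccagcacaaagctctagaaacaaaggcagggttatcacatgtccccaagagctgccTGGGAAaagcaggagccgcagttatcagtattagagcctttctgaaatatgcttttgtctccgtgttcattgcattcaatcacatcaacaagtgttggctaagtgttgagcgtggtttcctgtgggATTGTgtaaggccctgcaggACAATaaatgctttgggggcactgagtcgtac
Gja4 held 1 match, to the Sox core, 86 bases before the start, and Gja5 held 1, to the ETS core, 68 bases before it. Bmx held 3, 1 to the RBPJ core and 2 to the Sox core. Of 32851 promoter windows of this length in the table, 21.6% held TGGGAA, 27.7% ACAAT and 29.5% AGGAAG, and a match describes the sequence only.

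The endothelial rule gave 1246 Ctrl cells, 1090 of Sham_D40, 1287 of Graft_D19 and 1277 of Graft_D40. Of these 240, 310, 343 and 775 were Stab2-negative. Levels are given as CPM, the UMIs of a gene summed over the cells of a class and given as counts per 1000000 UMIs of that class, and fewer positive cells and less RNA per cell cannot be told apart in such a sum. Ctrl was the shallowest library, with a median of 4382 UMIs per endothelial cell, where Sham_D40 had 8232.5, Graft_D19 9080 and Graft_D40 8844. Stab2 itself stood at 1404 CPM in Stab2-positive cells of Ctrl, and Sham_D40 had 1543, Graft_D19 1056 and Graft_D40 575, so detection of Stab2 does not divide the libraries at the same point.

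The Stab2-negative cells were not all endothelial by their other genes. The cartilage collagen Col2a1 stood at 2339, 7097, 14501 and 9119 CPM there in Ctrl, Sham_D40, Graft_D19 and Graft_D40, and the summed level of 10 chondrocyte and osteoblast genes ran from 6366 to 24030 CPM against 1062 to 2462 in Stab2-positive cells. Levels of the arterial genes were therefore also read without cells low in pan-endothelial genes. Requiring 20 or more UMIs per 10000 of 10 pan-endothelial genes (Kdr, Tek, Tie1, Egfl7, Cldn5, Esam, Eng, Erg, Robo4 and Ecscr) removed 26, 69, 99 and 212 Stab2-negative cells, and 10, 6, 13 and 7 Stab2-positive cells. Of the removed Stab2-negative cells, 12, 46, 66 and 129 had cartilage genes at 20 or more UMIs per 10000, so other cells were removed with them. The 10 chondrocyte and osteoblast genes then summed to 406, 371, 1958 and 888 CPM in the Stab2-negative cells. This pan-endothelial limit was chosen after those values were seen, and results are given with it beside the cells of the rule.

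Of the 10 arterial genes, 9 were higher in Stab2-negative than in Stab2-positive cells by the test below, and Ly6a did not pass it. Gja5, Stmn2 and Bmx, a Tec family kinase of arterial endothelium, differed most. The connexin Gja5 stood at 66.3, 35.7, 10.3 and 49.5 CPM in Stab2-negative cells of Ctrl, Sham_D40, Graft_D19 and Graft_D40, and at 1.76, 0, 0.103 and 0.367 CPM in Stab2-positive cells, where 9, 0, 1 and 2 UMIs were counted. All 4 Stab2-negative values lay above all 4 Stab2-positive ones, and Graft_D19 was the lowest of the former. Sham_D40, with 0 UMIs, allows up to 0.413 CPM (3 UMIs).

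The second connexin, Gja4, stood at 66.3, 73.8, 57.5 and 73.3 CPM in Stab2-negative cells, in the same library order as above and below. In Stab2-positive cells it stood at 1.37, 0.826, 3.30 and 13.2 CPM. The Stab2-negative levels lay close together across libraries, and the Stab2-positive level was highest in Graft_D40. Stmn2, a stathmin that binds tubulin and is best known from neurons, stood at 268, 136, 36.1 and 96.5 CPM in Stab2-negative cells and at 5.88, 1.38, 0.722 and 1.28 CPM in Stab2-positive cells. Bmx stood at 35.9, 36.4, 9.15 and 17.3 CPM against 1.18, 0.138, 0.413 and 0.550 CPM. For both genes the classes did not overlap and Graft_D19 held the lowest Stab2-negative level.

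Sema3g, a secreted semaphorin, stood at 138, 121, 55.1 and 87.9 CPM in Stab2-negative and 10.4, 8.81, 14.0 and 23.3 CPM in Stab2-positive cells. Sox17 stood at 178, 117, 59.4 and 84.5 CPM against 67.4, 48.2, 47.0 and 41.7 CPM. Efnb2 stood at 126, 127, 138 and 107 CPM against 28.4, 41.0, 61.9 and 85.7 CPM. Within each library the Stab2-negative cells were higher for all 3, but for Sox17 the Graft_D19 Stab2-negative cells lay below the Ctrl Stab2-positive ones.

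Podxl, a sialomucin of the luminal surface, stood at 333, 264, 179 and 229.8 CPM in Stab2-negative and 39.0, 56.6, 86.7 and 195 CPM in Stab2-positive cells, and Graft_D40 Stab2-positive cells overlapped the Stab2-negative range. Ly6a stood at 1519, 871, 443 and 1065 CPM in Stab2-negative cells and 639.9, 413, 565 and 1331 CPM in Stab2-positive cells, so the classes overlapped and both grafted libraries were higher in Stab2-positive cells. Clu, a secreted chaperone, stood at 236, 989, 312 and 277 CPM against 15.1, 149.8, 27.2 and 22.02 CPM.

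**Figure D1:**
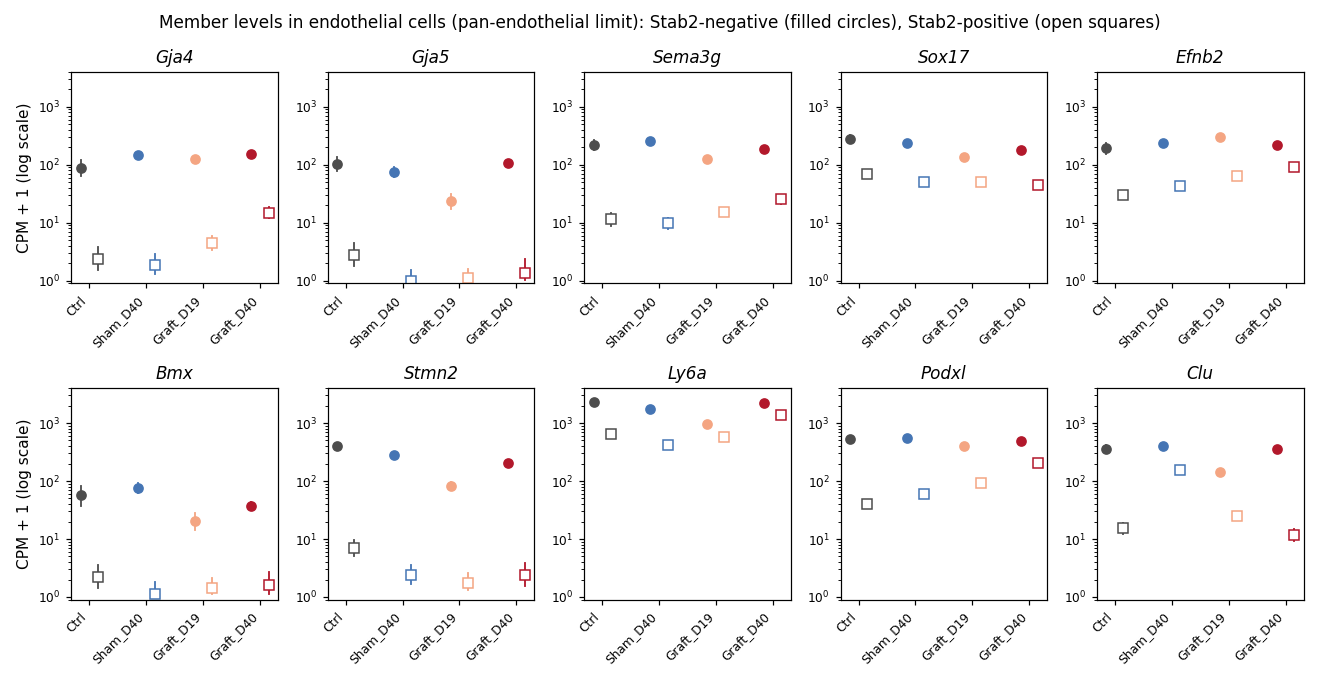
Levels of the 10 genes in Stab2-negative (filled circles) and Stab2-positive (open squares) endothelial cells of each library, with the pan-endothelial limit, as CPM + 1 on a log axis; bars are 95% Poisson intervals of the counts. Gja5, Bmx and Stmn2 stay near the bottom of the axis in Stab2-positive cells of all 4 libraries, whereas Podxl and Ly6a reach their highest Stab2-positive level in Graft_D40.

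Summed counts of the 2 classes were compared with edgeR's quasi-likelihood test, with library as a block, so that the 4 libraries served as replicates of the split although they differ in treatment, and the p-values measure only the spread between these libraries. Of 12351 genes tested, 23.1% were higher in Stab2-negative cells at an adjusted p under 0.05, and 9 of the 10 arterial genes were. The log2 difference was 6.39 for Gja5 (SE 0.41, adjusted p 5.27e-05), 5.98 for Stmn2 (SE 0.20, adjusted p 3.05e-05) and 5.44 for Bmx (SE 0.40, adjusted p 7.97e-05), each by edgeR. Gja4 was 4.18 higher (SE 0.51), Clu 3.51 (SE 0.21), Sema3g 2.84 (SE 0.33), Podxl 1.68 (SE 0.40), Efnb2 1.34 (SE 0.24) and Sox17 1.08 (SE 0.16) on the same scale. Ly6a was 0.49 higher (SE 0.27, edgeR adjusted p 0.19) and was not called. The median of the 10 was 3.17, beside -0.01 over all genes tested.

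With the pan-endothelial limit 11.5% of 11866 genes were higher in Stab2-negative cells and 11.7% lower. All 10 arterial genes were among the higher ones, with a median log2 difference of 3.45. Ly6a was then 1.26 higher (SE 0.22, edgeR adjusted p 0.00183). Genes of other vessels and cells differed in the same test. Of 10 capillary genes 5 were higher and none lower, among them Meox2 at 6.06 (SE 0.31), Car4 at 4.81 (SE 0.35) and Tcf15 at 4.68 (SE 0.40), and Vwf, of the sinusoidal and venous list, was 5.40 higher (SE 0.30). Of 9 tested pericyte and smooth muscle genes 4 were higher, Acta2 by 4.94 (SE 0.45) and Tagln by 4.44 (SE 0.37) among them, and 2 lower, while all 10 summed to 662 to 1290 CPM in Stab2-negative and 1449 to 1925 CPM in Stab2-positive cells. Of 10 stress genes 6 were lower. Their part in the levels of the arterial genes was not tested. Without Sham_D40 the Podxl difference, 1.47, was not called by edgeR in cells of the rule (adjusted p 0.0594).

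**Figure D2:**
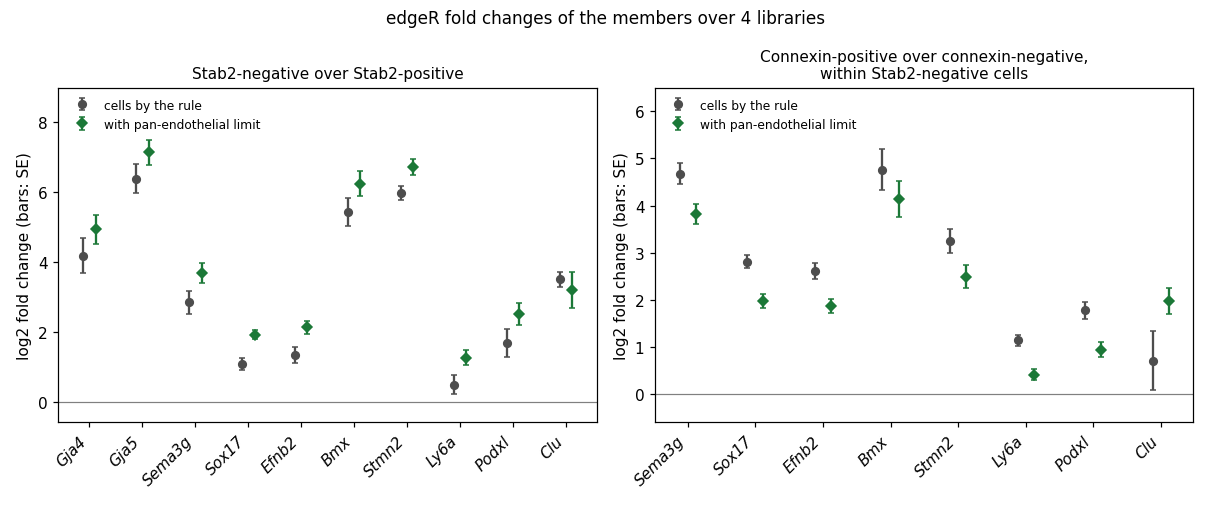
Log2 fold changes of the arterial genes by edgeR over 4 libraries, with standard errors, for Stab2-negative over Stab2-positive cells (left) and for connexin-positive over connexin-negative cells within the Stab2-negative class (right; Gja4 and Gja5 define that split and are left out). Circles are the cells of the rule and diamonds those with the pan-endothelial limit; Gja5, Stmn2 and Bmx differ most on the left, Bmx and Sema3g on the right.

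Stromal cells of the same libraries held no UMI of Cdh5 or Pecam1 and 20 or more UMIs of Col1a2 and Cxcl12 together per 10000. They give the levels of another cell type for comparison. Gja4, Gja5, Sema3g, Sox17, Efnb2, Stmn2 and Podxl stood between 0.209 and 5.18 CPM in stroma, below their Stab2-negative levels in every library. Bmx stood at 17.9, 10.2, 6.86 and 2.70 CPM in stroma, above its Stab2-positive level in each library. Ly6a stood at 49.97, 92.02, 51.6 and 199.6 CPM there. Clu was a stromal gene here, at 1038, 1073, 646 and 490 CPM.

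The shares of cells with a UMI were compared after thinning each cell to 2000 UMIs, which left out 143, 18, 26 and 29 Stab2-negative cells. Gja5 was detected in 12.4% (95% Clopper-Pearson interval 6.56 to 20.6) of Stab2-negative cells in Ctrl, 8.22% (5.34 to 11.98) in Sham_D40, 2.52% (1.10 to 4.91) in Graft_D19 and 6.57% (4.90 to 8.59) in Graft_D40. Unthinned, these shares were 7.50%, 12.3%, 4.66% and 9.16%. In stroma Gja5 was detected in 0.649%, 0.672%, 0.314% and 0.0541% of cells thinned alike. Before thinning the stromal cells held a median of 3651, 9038, 7684 and 8588.5 UMIs, and the Stab2-negative cells 1740.5, 5997.5, 8075 and 8540. Graft_D19 had the lowest share of Gja5-positive cells, with an interval below that of Ctrl and of Sham_D40 and just overlapping that of Graft_D40.

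The levels of the other arterial genes were compared between cells with and without a connexin. Stab2-negative cells with a UMI of Gja4 or Gja5 numbered 34 for Ctrl, 69 for Sham_D40, 55 for Graft_D19 and 117 for Graft_D40. With Col1a2 alone in the stromal limit they numbered 66, 130, 95 and 205, so the rule leaves out such cells with more Cxcl12. Of the 8 genes not used by that split, 7 were higher in the connexin-positive cells of the rule than in the connexin-negative remainder. In the same edgeR test 11.5% of 8528 genes were higher. Among cells past the pan-endothelial limit 3.89% of 8091 genes were higher and 2.93% lower, and 8 of 8 arterial genes were higher. In that fit 8 of 10 capillary genes were lower in connexin-positive cells and none higher. Of 6 tested pericyte and smooth muscle genes 3 were higher, Rgs5 by 3.04 (SE 0.43) and Acta2 by 2.92 (SE 0.61) among them, and 3 lower. In Ctrl and Sham_D40 all 10 summed to 917 and 384 CPM in connexin-positive cells, against 1368 and 762 CPM in connexin-negative cells. In Graft_D19 and Graft_D40 they summed to 1008 and 1033 CPM, against 755 and 685 CPM, so the order differed between libraries. Both erythroid genes tested were higher, Hba-a2 by 2.36 (SE 0.60) and Hbb-bs by 2.01 (SE 0.55), and the 6 erythroid genes summed to 1646 against 119 CPM in Sham_D40, but to less in connexin-positive cells of the other 3 libraries, at 75.4 against 91.2 in Ctrl, 11.2 against 17.9 in Graft_D19 and 3.104 against 7.71 in Graft_D40. Their part in the levels of the arterial genes was not tested. Median depth in connexin-positive cells was 2355, 5470, 7348 and 7416 UMIs against 1653, 6187, 8186.5 and 8979 in connexin-negative cells.

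With the limit, Sema3g stood at 1018, 841, 329 and 707 CPM in connexin-positive cells of Ctrl, Sham_D40, Graft_D19 and Graft_D40, and at 49.5, 43.3, 43.3 and 46.8 CPM in connexin-negative cells. Its log2 difference was 3.82 (SE 0.21, edgeR adjusted p 2.44e-07), and the classes lay far apart in every library. Bmx stood at 264, 254, 39.2 and 157 CPM against 13.0, 12.5, 11.2 and 4.13 CPM, a log2 difference of 4.15 (SE 0.38, edgeR adjusted p 1.25e-05). Graft_D19 was the lowest connexin-positive library for both genes.

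Stmn2 was 2.49 higher (SE 0.25), Sox17 1.97 (SE 0.15), Clu 1.97 (SE 0.27), Efnb2 1.86 (SE 0.15) and Podxl 0.94 (SE 0.16) on the log2 scale with the limit. The smallest difference was that of Ly6a, at 0.41 (SE 0.11, edgeR adjusted p 0.0387). It was not called without Ctrl (adjusted p 0.179), Sham_D40 (adjusted p 0.247) or Graft_D40 (adjusted p 0.101), each left out of the edgeR fit in turn. Clu was not called in cells of the rule, at 0.71 (SE 0.63, edgeR adjusted p 0.471).

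Gja4 and Gja5 did not mark the same cells to the same extent in the 4 libraries. Of the connexin-positive cells, 11 of Ctrl, 33 of Sham_D40, 15 of Graft_D19 and 63 of Graft_D40 held both genes, and 16, 31, 39 and 46 held Gja4 alone. Cells with Gja5 were 52.9%, 55.1%, 29.1% and 60.7% of connexin-positive cells, lowest in Graft_D19. Pericyte and smooth muscle genes were found beside both connexins: Rgs5, Acta2, Myh11 and Tagln together stood at 2096, 6151, 1870 and 2901 CPM in cells with Gja4 alone and at 1072, 133, 60.9 and 1237 CPM in cells with Gja5. Past the pan-endothelial limit they stood at 0, 41.2, 574 and 733 CPM with Gja4 alone and at 1072, 155, 72.2 and 467 CPM with Gja5, so the order of the 2 kinds of cell differed between libraries. The Gja5 share of connexin-positive cells was then 54.5%, 57.8%, 29.4% and 62.4%.

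At 2000 UMIs per cell the connexin-positive cells held a median of 7, 6, 4 and 6 of the 10 genes in Ctrl, Sham_D40, Graft_D19 and Graft_D40, the connexin that chose them included. Stab2-positive cells held a median of 1 in every library. Cells with 3 or more of the genes were 2.78%, 3.79%, 2.81% and 8.42% of Stab2-positive cells, highest in Graft_D40.

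Of all endothelial cells thinned to 2000 UMIs, 2.40% (95% Clopper-Pearson interval 1.53 to 3.58) held a UMI of Gja4 or Gja5 in Ctrl. The share was 4.54% (3.37 to 5.98) in Sham_D40, 2.66% (1.84 to 3.71) in Graft_D19 and 7.71% (6.29 to 9.33) in Graft_D40. This connexin-positive share counts Stab2-positive cells too, unlike the connexin-positive class above. The Graft_D40 interval lay above the other 3. Unthinned, the shares were 3.29%, 6.70%, 5.44% and 11.04%. The share also depends on the other endothelial cells recovered by the sort, and 287, 33, 45 and 32 cells were too shallow to enter. Stab2-negative cells were 19.3%, 28.4%, 26.7% and 60.7% of endothelial cells. Within the Stab2-negative class, unthinned, connexin-positive cells were 14.2%, 22.3%, 16.0% and 15.1%, so Graft_D40 was not the highest there. With the pan-endothelial limit they were 15.4%, 26.6%, 20.9% and 19.4%. These values are not matched for depth.

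**Figure D3:**
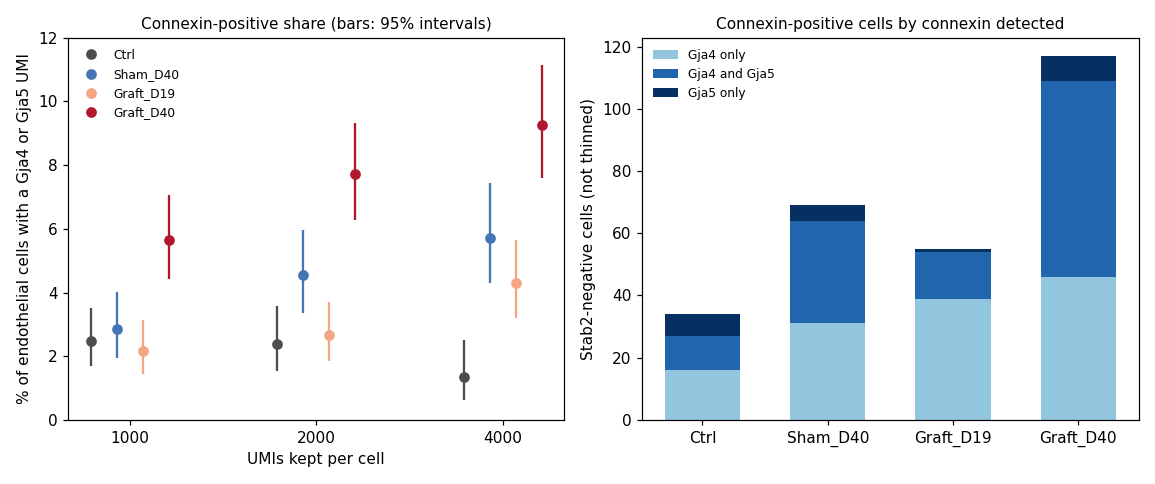
Left, percentage of endothelial cells with a UMI of Gja4 or Gja5 after thinning to 1000, 2000 or 4000 UMIs per cell, with 95% Clopper-Pearson intervals; Graft_D40 is the highest library at each depth, at 7.71% for 2000 UMIs. Right, numbers of unthinned Stab2-negative connexin-positive cells by the connexin detected; Graft_D19 has 39 cells with Gja4 alone and 15 with both.

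In Stab2-positive cells the day 40 graft library stood apart from the ungrafted ones for some of the 10 genes and not for others. Podxl, Ly6a, Efnb2, Sema3g and Gja4 were higher in Graft_D40 than in Sham_D40 by 1.5-fold or more, Clu was lower, and Sox17 was within 1.5-fold. Gja5, Bmx and Stmn2 were below the minimum mean of 5 CPM needed to be counted as measured. That made 5 of 7 measured genes higher and 1 lower, where 7.76% of 10378 measured genes were higher and 6.44% lower. With every cell thinned to 2000 UMIs, 3 of 6 measured genes were higher and none lower. No share of all genes is given beside that count, so it does not set the arterial genes apart. The classes were drawn again on the thinned counts. Stab2-positive cells then numbered 327 in Graft_D40 and 690 in Sham_D40, in place of 502 and 780. The log2 ratios were then 1.46 for Podxl, 1.33 for Ly6a and 1.17 for Efnb2, but 0.30 for Sema3g and -0.06 for Clu, and Gja4 was no longer measured. Comparisons with Ctrl and with Sham_D40 share the Graft_D40 library. Against Ctrl 5 of 7 were higher and 1, Sox17, lower, where 24.6% of measured genes were higher and 10.1% lower. Without the richest cell of each library, Gja4 was no longer measured against Sham_D40 or against Ctrl.

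Podxl was 3.44-fold (95% interval 3.07 to 3.87) higher in Graft_D40 than in Sham_D40 and 4.99-fold (4.29 to 5.84) higher than in Ctrl. Its level in Graft_D19, 86.7 CPM, lay between. In stroma Podxl stood at 0.585 to 2.30 CPM in all 4 libraries. At 2000 UMIs a cell it was detected in 24.6% (20.9 to 28.7) of Graft_D40 Stab2-positive cells, against 6.96%, 9.41% and 12.8% in Ctrl, Sham_D40 and Graft_D19, and its interval lay above all 3. Unthinned, the shares were 63.1% in Graft_D40 and 14.0%, 30.9% and 39.6% in the others.

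Ly6a was 3.22-fold (3.09 to 3.36) higher in Graft_D40 than in Sham_D40 and 2.08-fold (1.99 to 2.17) higher than in Ctrl. Sham_D40 was itself 1.55-fold (1.47 to 1.63) lower than Ctrl. Stromal Ly6a was also highest in Graft_D40, at 199.6 CPM, and what this adds to the endothelial level was not tested. Efnb2 was 2.09-fold (1.80 to 2.42) higher than in Sham_D40 and 3.02-fold (2.50 to 3.66) higher than in Ctrl, and Sema3g 2.65-fold (1.94 to 3.63) and 2.24-fold (1.62 to 3.15). Efnb2 was already at 61.9 CPM in Graft_D19, 2.18-fold (1.81 to 2.63) above Ctrl.

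Gja4 was at 7, 6, 32 and 72 UMIs in Stab2-positive cells, detected in 5, 4, 14 and 22 cells. Its Graft_D40 level was 16.0-fold (7.001 to 45.03) that of Sham_D40, but 1 cell held 24 of the 72 UMIs. Without the richest cell of each library Gja4 stood at 8.86 CPM in Graft_D40, 0.413 in Sham_D40 and 0.980 in Ctrl. Its mean was then below the minimum of 5 CPM in either comparison. When only cells with 3 or more Stab2 UMIs were kept, Gja4 stood at 0.666, 0.728, 0.588 and 1.71 CPM, with 6 UMIs in Graft_D40, so that most of its UMIs lay in cells with 1 or 2 of Stab2. Sox17 stood lower in Graft_D40 than in Ctrl, by 1.62-fold (1.36 to 1.92), and close to Sham_D40, at 0.865 of its level (0.728 to 1.02).

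Gja5, Bmx and Stmn2 were detected in 2, 3 and 7 Graft_D40 Stab2-positive cells, 0.398%, 0.598% and 1.39% of the 502. The Ctrl shares were 0.398%, 0.298% and 0.994%. At 2000 UMIs Gja5 was found in 0 of 499 Graft_D40 cells, which allows a share of cells with a UMI at that depth of up to 0.601% (3 cells of 499). None of the 3 was at the levels of Stab2-negative cells in any library.

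The Clu values rested on single cells to different extents. In Ctrl the richest Stab2-positive cell held 3 Clu UMIs and the other cells 74. Graft_D19 had 61 and 203, and Graft_D40 64 and 56. Clu in Sham_D40 rested most on a single cell. Of its 1088 UMIs in Sham_D40 Stab2-positive cells, 882 came from 1 cell, and without the richest cell of each library Clu stood at 14.5, 28.5, 20.99 and 10.3 CPM in place of 15.1, 149.8, 27.2 and 22.02 CPM. Its Graft_D40 level was then 0.362 (0.264 to 0.488) of that in Sham_D40, instead of 0.147 (0.121 to 0.178).

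**Figure D4:**
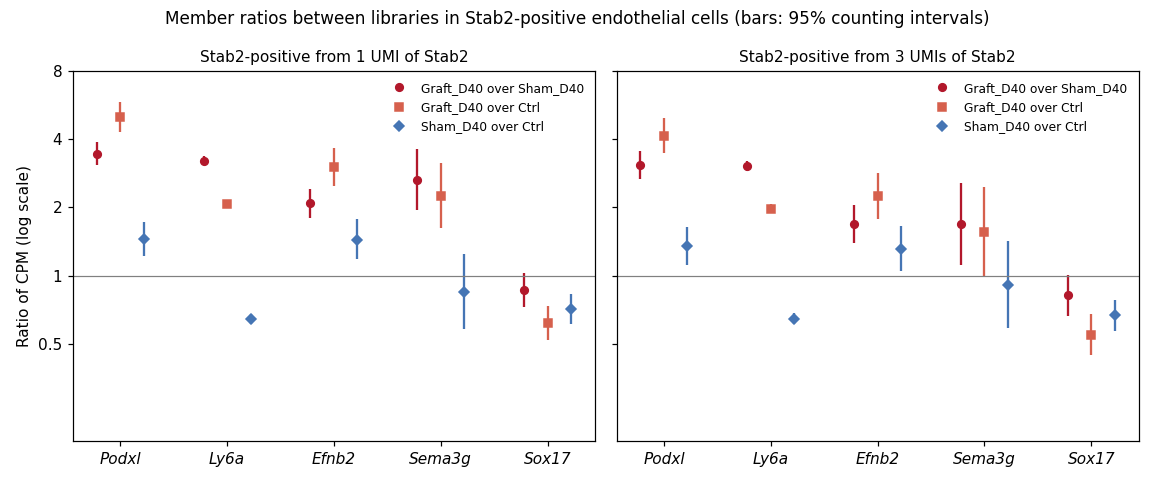
Ratios of CPM between libraries for 5 arterial genes in Stab2-positive cells, on a log axis, with 95% exact conditional intervals that cover counting error only; cells with 1 or more (left) or 3 or more (right) Stab2 UMIs. Podxl and Ly6a stay about 3-fold higher in Graft_D40 than in Sham_D40 on both sides, whereas Sox17 stays below 1.

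Cells with more Stab2 gave similar values for Podxl and Ly6a. With 3 or more Stab2 UMIs, a limit chosen after the levels of Stab2 were seen, Podxl was 3.08-fold (2.68 to 3.54) and Ly6a 3.05-fold (2.91 to 3.20) higher in Graft_D40 than in Sham_D40, and 4 of 6 measured arterial genes were higher and 1 lower, where 6.2% and 6.07% of measured genes were. Efnb2 and Sema3g were each 1.70-fold higher there (1.40 to 2.06 and 1.12 to 2.57), closer to the 1.5-fold limit. Against Ctrl, Podxl, Ly6a and Efnb2 were higher and Sox17 lower in these cells, 3 and 1 of 6, where 24.3% of measured genes were higher and 10.2% lower. In cells past the pan-endothelial limit 5 of 7 were higher and 1 lower, beside 7.61% and 6.76% of measured genes.

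Markers of other cells and of handling also differed in that library. In Stab2-positive cells the summed level of 10 dissociation stress genes was 5601, 5755, 4102 and 2699.8 CPM in Ctrl, Sham_D40, Graft_D19 and Graft_D40, and that of 10 chondrocyte and osteoblast genes 1139.6, 1062, 1847 and 2462 CPM. The 10 pericyte and smooth muscle genes summed to 1397 to 1882 CPM, the 10 mesenchymal genes to 334 to 559.7, the 10 haematopoietic genes to 269.9 to 484, the 6 megakaryocyte genes to 31.1 to 54.1 and the 6 erythroid genes to 26.8 to 98.6 CPM, with no gene of these lists at 0. Of the chondrocyte and osteoblast genes 8 of 10 were 1.5-fold or more higher in Graft_D40 than in Sham_D40, and of the stress genes 9 of 10 were lower, beside 7.76% and 6.44% of all measured genes. With the pan-endothelial limit the chondrocyte and osteoblast sum was 202 to 613 CPM, and the 5 arterial genes were still past 1.5-fold. Their part in the levels of the arterial genes was not tested. The scaling itself moved little between Graft_D40 and Sham_D40, where TMM factors shifted all genes by 0.04 (log2). Between Graft_D40 and Ctrl the shift was larger, at 0.23.

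**Figure D5:**
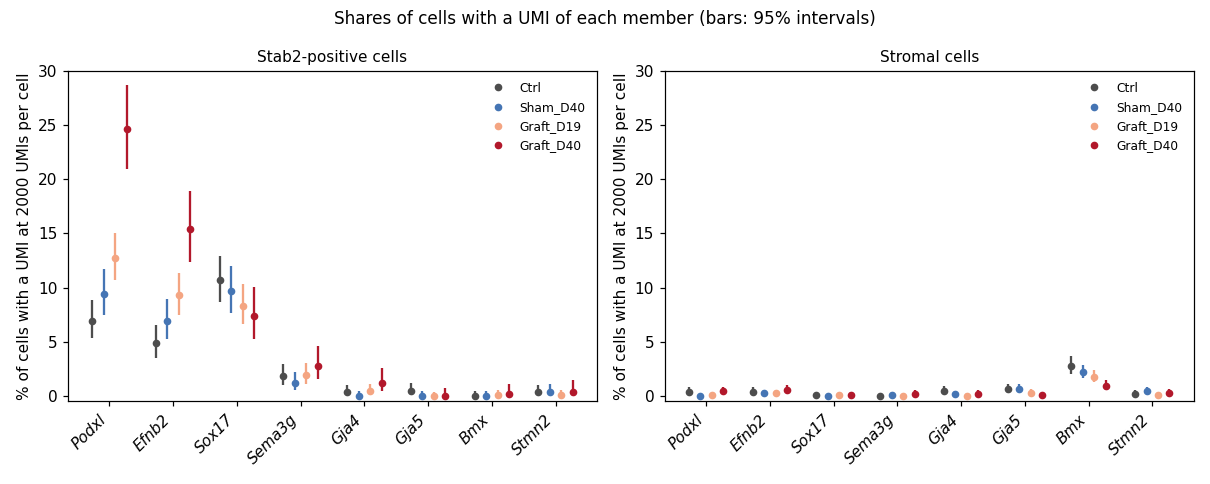
Percentage of Stab2-positive cells (left) and stromal cells (right) with a UMI of 8 of the genes after thinning to 2000 UMIs, by library, with 95% Clopper-Pearson intervals. Podxl reaches 24.6% of Graft_D40 Stab2-positive cells; the stromal shares stay below 3%.

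Graft_D19 Stab2-positive cells were compared in the same way. Podxl, at 2.23-fold (1.90 to 2.61), Efnb2 and Clu, at 1.81-fold (1.40 to 2.36), were 1.5-fold or more higher than in Ctrl and none was lower, 3 of 6 measured genes, where 19.6% of 10166 genes were higher and 7.01% lower. Against Sham_D40, Sema3g and Podxl were higher and Clu lower, 2 and 1 of 6, where 4.33% were higher and 3.42% lower. Sham_D40 against Ctrl gave Clu higher and Ly6a lower, 1 each of 6, where 19.9% were higher and 9.05% lower. The Clu calls of these 3 comparisons also moved without the richest cell of each library. Clu in Graft_D19 was then 1.44-fold (1.10 to 1.91) that of Ctrl and 0.737 (0.604 to 0.898) of that in Sham_D40, both within 1.5-fold, which left 2 of 6 genes higher than in Ctrl and none lower than in Sham_D40. Sham_D40 was 1.96-fold (1.496 to 2.59) above Ctrl in place of 9.93-fold.

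Stab2-negative cells gave other orders. In Graft_D19, 7 of the 10 arterial genes were 1.5-fold or more lower than in Ctrl and none was higher, where 18.4% of 10782 genes were lower and 22.3% higher. Stmn2 was 7.41-fold (5.97 to 9.22) lower, Gja5 6.42-fold (4.18 to 9.90), Bmx 3.92-fold (2.29 to 6.61), Ly6a 3.43-fold (3.18 to 3.69), Sox17 3.001-fold (2.41 to 3.72), Sema3g 2.50-fold (1.96 to 3.18) and Podxl 1.86-fold (1.60 to 2.15) lower. Gja4, at 0.867 of the Ctrl level (0.634 to 1.21), Efnb2 and Clu were not past 1.5-fold. Capillary and stress genes differed in the same cells. Of 10 capillary genes 8 were lower and 1 higher, and the 10 stress genes summed to 8371 CPM in Graft_D19 against 5105 in Ctrl.

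Of the 343 Graft_D19 Stab2-negative cells, 66 were below the pan-endothelial limit and had cartilage genes at 20 or more UMIs per 10000. With the limit Stmn2 was 4.93-fold (3.96 to 6.16) and Gja5 4.52-fold (2.93 to 6.99) lower than in Ctrl, Sox17 2.06-fold (1.66 to 2.56) and Ly6a 2.42-fold (2.24 to 2.61). Podxl was then within 1.5-fold, Clu was 2.49-fold (2.04 to 3.04) lower, and Efnb2 was 1.55-fold (1.24 to 1.97) higher. In all 7 were lower and 1 was higher, where 16.0% of 10276 genes were lower and 23.6% higher. Of the capillary genes 7 were then lower and 2 higher, with Car4 9.38-fold (5.59 to 16.3), Tcf15 7.93-fold (6.17 to 10.2) and Cd36 6.58-fold (5.92 to 7.32) lower, and the 10 together stood at 5886 CPM against 21504 in Ctrl. The stress genes summed to 3094 against 2432 CPM. Their part in the levels of the arterial genes was not tested. Against Sham_D40, a comparison that shares Graft_D19, the 7 genes lower with the limit were Bmx, Stmn2, Gja5, Clu, Sema3g, Ly6a and Sox17, where 10.9% of genes were lower and 11.1% higher.

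At day 40 most of the 10 arterial genes stood within 1.5-fold of their Sham_D40 levels in Stab2-negative cells. Bmx was 2.10-fold (1.64 to 2.69) and Clu 3.56-fold (3.38 to 3.75) lower, 2 of 10, and none was 1.5-fold higher, where 8.61% of 10992 genes were lower and 4.52% higher. In Sham_D40 1 cell held 1292 of the 2933 Clu UMIs, and without the richest cell of each library Clu was 0.434 (0.407 to 0.462) of that level, in place of 0.281. With the limit Clu was at 0.881 (0.800 to 0.972) of Sham_D40, and only Bmx, at 2.09-fold (1.62 to 2.68), was lower by 1.5-fold and none was higher, where 6.12% of genes were lower and 8.2% higher. Gja5 stood 1.38-fold (1.12 to 1.72) higher in Graft_D40 and Gja4 at 0.993 of Sham_D40 (0.852 to 1.16). Between the graft libraries, Gja5, Stmn2, Ly6a, Bmx and Sema3g were 1.5-fold or more higher in Graft_D40 than in Graft_D19 and none was lower, 5 of 10, where 4.6% of genes were higher and 4.75% lower. Past the pan-endothelial limit they again numbered 5 higher and none lower, with Clu among them and Sema3g not, where 7.62% of genes were higher and 5.5% lower.

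Other genes known from arteries were read from a list of 30, of which 10 are also in the Notch list below and Alpl is also a bone gene. Among cells past the pan-endothelial limit, 24 of the 29 tested were higher in Stab2-negative than in Stab2-positive cells and 2 were lower. Of all genes tested 11.5% were higher and 11.7% lower. The median log2 difference of the list was 2.45. The adhesion gene Cdh13 was 4.83 higher (SE 0.33), the Notch target Hey1 4.82 (SE 0.36) and Fbln2, a matrix fibulin, 4.23 (SE 0.49). Within Stab2-negative cells, with the same limit, 19 of 28 were higher in connexin-positive cells and 1 lower, beside 3.89% and 2.93% of all genes tested. Fbln5 was 3.38 higher (SE 0.24), Hey1 3.28 (SE 0.34) and the netrin receptor Unc5b 2.70 (SE 0.20). In Stab2-positive cells 16 of 27 measured genes of the list were 1.5-fold or more higher in Graft_D40 than in Sham_D40 and 2 were lower. The median log2 ratio was 1.14 beside 0.03 over all measured genes, of which 7.76% were higher and 6.44% lower. In Stab2-negative cells with the limit, the 4 genes of the list that differed most went both ways. Igfbp3 was 2.68-fold and Cxcr4 1.96-fold higher in Graft_D40 than in Sham_D40, and Edn1 was 2.07-fold and Alpl 1.86-fold lower.

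Fbln2 stood at 16.1, 8.12, 19.3 and 81.5 CPM in Stab2-positive cells, Igfbp3 at 34.1, 36.9, 99.4 and 275 CPM and Ly6c1 at 276, 179, 310 and 773 CPM. All 3 were highest in Graft_D40. Ly6c1 belongs to the same family of surface proteins as Ly6a. Reads of such related genes can be hard to assign, so values of both are less certain than the others.

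A list of 21 genes of the Notch pathway and its arterial context, 10 of them also in the list above, was read in Stab2-positive cells. Of 19 measured, 2 were higher in Graft_D40 than in Sham_D40, the ligand Jag2 and the SoxF factor Sox7, and 3 were lower, the ligand Jag1, the VEGF receptor Kdr and the Notch target Hes1. Over all measured genes 7.76% were higher and 6.44% lower, so that the number of higher Notch genes was near the background. Jag2 stood at 7.05, 11.7, 19.1 and 36.1 CPM and Jag1 at 77.4, 67.3, 61.7 and 40.003 CPM, so the 2 ligands were ordered oppositely across the libraries. In Stab2-negative over Stab2-positive cells with the limit, 9 of 21 were higher and 4 lower, beside 11.5% and 11.7% of all genes tested. Of the 21, Kdr and Erg are also among the pan-endothelial genes that set the limit. Hey1 was 4.82 and Jag2 2.62 higher, and the venous factor Nr2f2 was 1.53 lower on the log2 scale (SE 0.36, 0.31 and 0.12).

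Of 20 sinusoidal and venous genes, 19 were measured in Stab2-positive cells, and 11 were lower and 4 higher in Graft_D40 than in Sham_D40, beside 6.44% and 7.76% of all measured genes. Vcam1 stood at 522, 856, 449.6 and 126 CPM and Ackr1 at 694, 534, 255 and 153 CPM, whereas the channel gene Piezo2 stood at 3.53, 15.8, 61.7 and 96.3 CPM and Ramp3 at 14.7, 24.5, 63.6 and 117 CPM. Of 8 measured capillary genes 3 were higher and 2 lower, beside the same shares of all genes, among them Apln at 2.15, 8.81, 57.7 and 66.1 CPM.

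The genes most like Gja5 were sought by Pearson correlation of log2(CPM + 1) over the 8 sums of library and class, among 6825 genes at a mean of 20 CPM or more. Rasgrf2 (r = 0.987), Amd1 (0.987), C1qtnf9 (0.984), Ola1 (0.984) and Crip1 (0.982) came first. Under the pan-endothelial limit they were Mustn1 (0.992), Ablim3 (0.990), Atp2a3 (0.989), Rasgrf2 (0.989) and C1qtnf9 (0.988). The 8 sums share libraries and depth, and high correlations over them are a description.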

How the data were processed

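The deposited matrices hold whole-number UMI counts per gene and barcode from 10x Genomics 3′ libraries. They were written by Cell Ranger 5.0.0 per the file headers, whereas the submitters' processing notes name version 3.1.0 and the build mm10. Antibody features in Sham_D40 and Graft_D40 were left out, and 0 columns lacked a sample. Cells with at least 500 genes, at least 1000 UMIs and at most 10% mitochondrial UMIs were kept, and doublets called by Scrublet (scanpy 1.11.5, expected rate 6%, seed 1) were removed, which left 4074 Ctrl, 4527 Sham_D40, 4813 Graft_D19 and 4867 Graft_D40 cells. Libraries shared 11 to 15 barcodes pairwise.

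Counts were summed per library and class. Stab2-negative and Stab2-positive sums, and connexin-positive and connexin-negative sums, were compared with the edgeR 4.0.16 quasi-likelihood test (limma 3.58.1, R 4.3.3), library as a block, Benjamini-Hochberg adjustment over all genes tested and a threshold of 0.05. DESeq2 1.42.0 was an alternative. Between libraries, ratios of CPM carry exact conditional 95% intervals and levels exact Poisson intervals, with 1.5-fold as the limit, a mean of 5 CPM as the minimum, a pseudocount of 1 CPM for log2 ratios and a floor of 3 UMIs. Shares were compared after thinning to 2000 UMIs with exact Clopper-Pearson intervals. Shares within a Stab2 class kept the classes drawn on all counts. Where summed counts were thinned as an alternative, the Stab2 and connexin classes were drawn again on the thinned counts. The scripts were tested on simulated data.

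The 10 genes were named throughout, and from other lists up to 4 genes with the largest difference at a mean of 20 CPM or more. The members and lists were chosen with earlier results of these data known. Alternatives were other thinning depths, other limits for stroma and endothelium, doublets kept, no filter on low counts, no block, each library left out, and, chosen after seeing the data, the pan-endothelial limit, 3 or more Stab2 UMIs and omission of the richest cell.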

Additional observations from a re-analysis of the deposited data

Results flagged for a closer look

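Ly6a differed in direction between the libraries. Its log2 ratio of Stab2-negative over Stab2-positive cells was 1.25 in Ctrl and 1.07 in Sham_D40, but -0.35 in Graft_D19 and -0.32 in Graft_D40. Both libraries without lymphoma lay above 0 and both with lymphoma below it, and the difference was not tested. With the pan-endothelial limit the ratios were 1.82, 2.02, 0.69 and 0.65, all above 0. Ly6a encodes Sca1, on which the endothelial cells were sorted.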

How the results depend on the processing

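The number of arterial genes called between Stab2-negative and Stab2-positive cells was 8 to 9 when 1 library was left out, and 10 in each such fit with the pan-endothelial limit. Between connexin-positive and connexin-negative cells it was 7, or 7 to 8 with the limit. All genes called numbered 5456 in the first contrast, 2753 with the limit, 2078 after thinning and 1625 with both, and 2140, 552, 666 and 478 in the second. Without the library block they were 3849 and 1190. Leaving out 1 library gave 3757 to 5883 and 1008 to 2448.

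Thinned to 1000 UMIs, the connexin-positive share of all endothelial cells was 2.84% in Sham_D40 and 5.64% in Graft_D40. Thinned to 4000 it was 1.33% in Ctrl and 4.30% in Graft_D19, and unthinned 6.70% in Sham_D40, 5.44% in Graft_D19 and 11.04% in Graft_D40. With Col1a2 alone in the stromal limit it was 6.46%, 4.30% and 10.9% in Sham_D40, Graft_D19 and Graft_D40. Stab2-negative connexin-positive cells then numbered 66, 130, 95 and 205 in Ctrl, Sham_D40, Graft_D19 and Graft_D40, in place of 34, 69, 55 and 117. Of the larger numbers, 61, 124, 87 and 196 cells were past the pan-endothelial limit. The levels and shares reported above do not cover such cells with more Cxcl12. The cause of the changes in share was not tested.

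Arterial genes past 1.5-fold between Graft_D40 and Sham_D40 in Stab2-negative cells numbered 2, all lower. They numbered 4, all lower, against Ctrl in place of Sham_D40, and 1, also lower, with the pan-endothelial limit. In Stab2-positive cells they numbered 3, all higher, after thinning, instead of 6. Between Graft_D19 and Ctrl in Stab2-positive cells they numbered 7 with no minimum CPM, 4 higher and 3 lower, instead of 3. The share of all genes is not given beside the Ctrl, thinned and no-minimum counts. Those counts therefore do not set the arterial genes apart. Clu reversed to 0.23 (log2) in Stab2-negative and 0.52 in Stab2-positive cells with Graft_D40 set against Ctrl, and to -2.42 in Stab2-positive cells with Graft_D19 set against Sham_D40. In Stab2-positive cells without the richest cell of each library the last 2 values were -0.46 and -0.42, so that the first did not reverse. Podxl in Stab2-negative cells, Graft_D19 over Ctrl, reversed to 0.18 after thinning and 0.32 with the limit and thinning. Thinning also redrew the classes, and Graft_D19 Stab2-negative cells then numbered 515 in place of 343. The cause of the Podxl change was not tested. The other counts of arterial genes and connexin-positive shares, 117 values under the alternatives, stayed within 1.5 times the reported count or inside the interval of the reported share. Of values for single genes and counts over all genes, 816 stayed within the same limits or kept their call and 150 moved past those limits, while 15 single-gene values gained and 5 lost a call, and 5 reversed. The gained calls were of Ly6a between the Stab2 classes and Clu between the connexin classes. The lost ones were Podxl without Sham_D40, and Ly6a between the connexin classes without the block, which left 6 of 8 genes called, or with the limit and 1 library left out. TMM scaling shifted all genes by 0.23, 0.18 and 0.19 (log2) in Stab2-positive cells for Graft_D40, Graft_D19 and Sham_D40 over Ctrl, and by -0.12 in Stab2-negative cells for Graft_D40 over Sham_D40. Between libraries, no paired analysis was possible because each group is 1 library. The contrasts of classes within libraries had library as a block.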
